A study of Homo sapiens with 18 samples.

Results

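The 10 genes described here encode the membrane sector of the vacuolar proton pump and its accessory proteins: ATP6V0A1, ATP6V0A2, TCIRG1, ATP6V0B, ATP6V0C, ATP6V0D1, ATP6V0E1, ATP6V0E2, ATP6AP1 and ATP6AP2. They are 10 of the 58870 rows of the count table, chosen by gene symbol, and all 10 were among the 17743 genes that passed the filter on low counts. ATP6V0E2 was selected on its difference between NRF1 and intergenic guides, so its values in that comparison are given as a description without a test, whereas the other 9 were chosen by membership of the complex. The members and the lists below were chosen with earlier results of these data known, which the p-values do not take into account. HEK293T cells, a human embryonic kidney line, had been transfected with a plasmid that carried a base editor, which rewrites single bases without cutting both strands, together with a guide RNA. The editors were ABE8e, an adenine editor, on the nickase SaCas9 (SaABE) or on the nickase SpCas9 (SpABE), and evoCDA1, a cytosine editor, on SpCas9 (SpCBE). Each was combined with a guide for a splice site of exon 7 of NRF1 or with a guide for an intergenic region, which gave 6 groups of 3 libraries. All groups shared the plasmid transfection, 48 hours of puromycin selection and lysis at 72 hours, and all were pools of selected cells in which the edited fraction was not measured here. The labels do not say that replicates came from separate transfections, and a p-value here therefore covers library-to-library spread alone, part of which may be technical.

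The vacuolar ATPase pumps protons into lysosomes, endosomes and secretory vesicles. Its cytosolic V1 sector splits ATP and turns a rotor, and its V0 sector, which lies in the membrane, carries the protons through a ring of proteolipids that turns against a large fixed subunit. NRF1, nuclear respiratory factor 1, is a transcription factor that binds a GC-rich palindrome close to the start of many genes, and MiT factors such as TFEB bind E-box sequences in promoters of lysosomal genes.

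Total counts ran from 28101094 to 40687447 per library. Estimated counts of the NRF1 gene were higher with the NRF1 guides, by 0.49 ± 0.04 (log2, SE) over the 3 editors, in a design that was meant to remove an exon and not the transcript. All 6 markers of the HEK293 line (PAX2, WT1, LIN28B, NEFL, NEFM and INA) lay above 1 CPM (library-scaled counts, defined below), with a summed level of 325 to 368 CPM with intergenic and 286 to 332 CPM with NRF1 guides. Of the markers of other cell types, 0 of 6 for kidney intercalated cells, 1 of 4 for proximal tubule, 1 of 5 for osteoclasts, 1 of 5 for blood and 1 of 5 for fibroblasts averaged above 1 CPM, and their summed levels overlapped between guides. Their part in the results below was not tested.

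Promoter windows from RefSeq (GRCh38.p14, 250 bases before to 50 bases after an annotated start) were found for 9 of the 10 genes. ATP6V0E1 has no entry. They were searched on both strands for the 10-letter NRF1 motif, as GCGCACGCGC or GCGCATGCGC, and for the TFEB core TCACGTGA. Only the second form of the motif is a palindrome, and the label palindrome below stands for either form. The 8-letter NRF1 core GCATGCGC, which is part of the second form, was searched for too. The stretches of 30 bases below are shown, with the match in capitals, because they hold every match among the 9 genes. Those of ATP6V0E2 come from the plus strand, at chr7:149873911-149873940, with the match 48 bases before the start, and at chr7:149873961-149873990, with the match 3 bases after it. The last is from the minus strand of ATP6V0D1, at chr16:67481199-67481228, with the match 60 bases before its start.
ATP6V0E2, palindrome: atcaggagatGCGCGTGCGCggcccggccc
ATP6V0E2, core: cgactcctgttGCGCATGCtcagcgcgctg
ATP6V0D1, TFEB core: cccccttatggTCACGTGAggcgcttgcgc
The capitals in the first are the reverse complement of GCGCACGCGC and those in the second the reverse complement of the core, and they do not overlap. The 10-letter motif, in either form, was present in 2.77% of the 35116 windows in the table, the 8-letter core in 3.05% and the TFEB core in 0.98%. A match is a description of the letters and not a measured binding site. ATP6V0E2 has other annotated starts upstream, and the windows of those starts held no match.

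ATP6V0E2 encodes the e2 form of a small hydrophobic subunit that sits against the proteolipid ring. It lies on chromosome 7 (149872968 to 149891204, plus strand, hg38). Levels are given as CPM, the share of a gene in the total count of its library expressed per 1e6 counts, scaled between libraries by TMM factors (trimmed mean of M values). In the SaABE libraries the gene stood at 127.2, 121.1 and 127.8 CPM with the intergenic guide and at 36.03, 37.46 and 35.44 CPM with the NRF1 guide. SpABE libraries gave 103.6, 109.3 and 117.7 CPM with the intergenic guide and 36.90, 36.93 and 36.33 CPM with the NRF1 guide. For SpCBE the values were 107.6, 112.0 and 111.5 CPM with the intergenic guide and 41.80, 42.48 and 40.49 CPM with the NRF1 guide. Every library with an NRF1 guide lay below every library with an intergenic guide, and the 9 NRF1 libraries spanned a narrow range of 35.44 to 42.48 CPM. The mean with NRF1 guides was 33.1% of that with intergenic guides. On the log2 scale the difference was -1.59 ± 0.04 (SE) over the 3 editors, and -1.79, -1.59 and -1.41 in SaABE, SpABE and SpCBE. These are bulk libraries, so fewer cells with the transcript and less transcript per cell cannot be told apart.

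**Figure D1:**
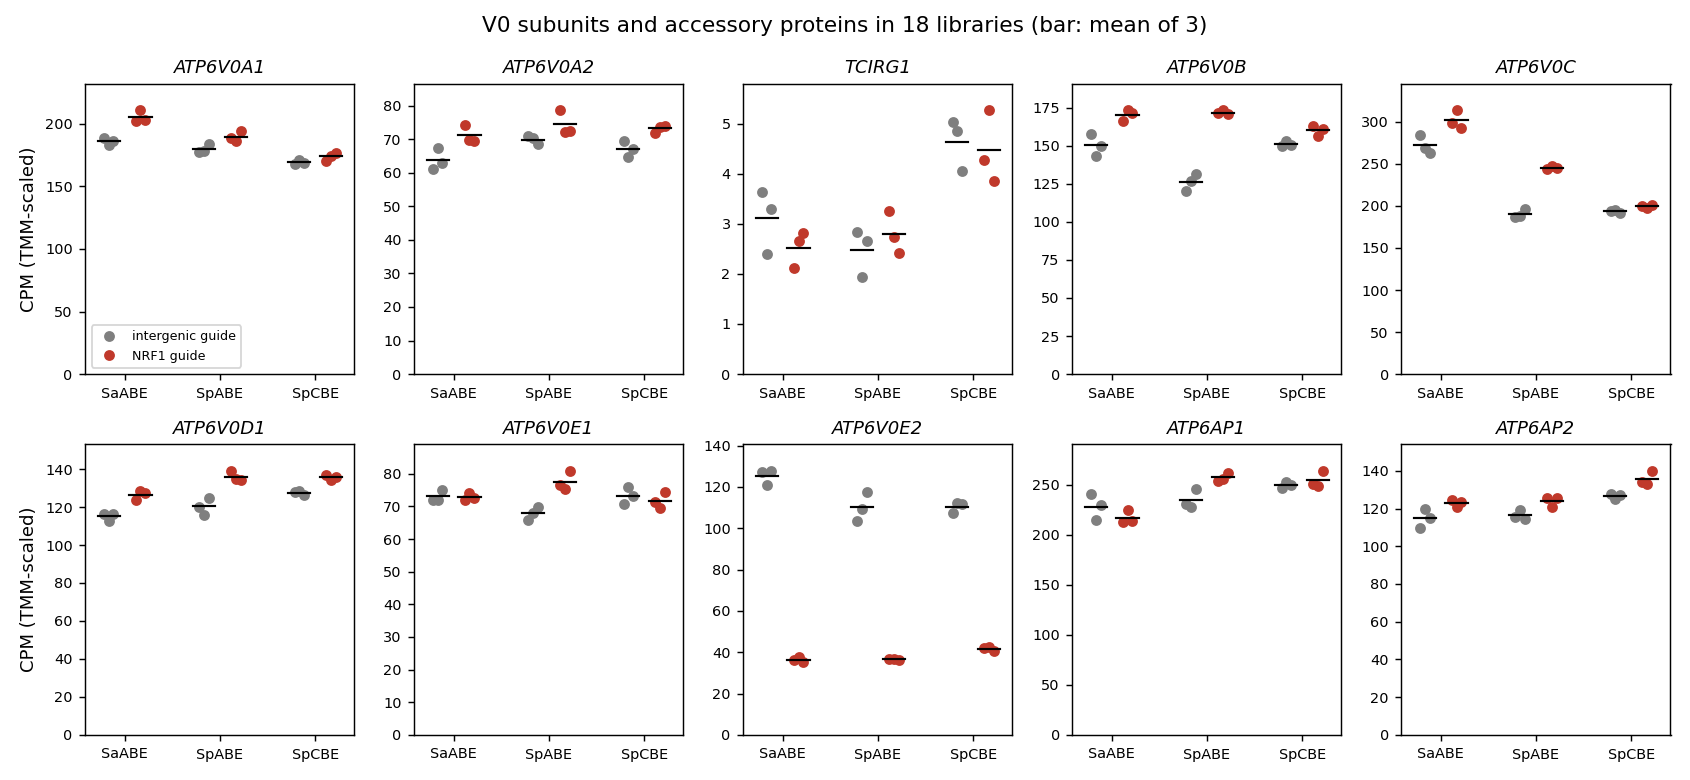
Level of each of the 10 genes (CPM after TMM scaling, linear axis from 0) in each of the 18 libraries, by editor, with intergenic guides in grey, NRF1 guides in red and a bar at the mean of 3. ATP6V0E2 lies at 103.6 to 127.8 CPM with intergenic and 35.44 to 42.48 CPM with NRF1 guides, and ATP6V0B and ATP6V0C in SpABE stand at 171.0 to 173.1 against 120.3 to 131.1 CPM and at 244.1 to 247.2 against 187.0 to 196.2 CPM.

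ATP6V0E1 encodes e1, the other form of this subunit. Its level was 71.92, 72.11 and 75.16 CPM in SaABE intergenic and 71.95, 74.06 and 72.69 CPM in SaABE NRF1 libraries. SpABE libraries stood at 66.01, 67.90 and 69.79 CPM with the intergenic guide and at 76.60, 75.43 and 80.94 CPM with the NRF1 guide. In SpCBE it was 70.66, 76.08 and 73.25 CPM against 71.28, 69.62 and 74.48 CPM. The groups overlapped in SaABE and SpCBE and were apart in SpABE, where ATP6V0E1 was higher by 0.19 ± 0.04 (log2, SE; edgeR quasi-likelihood test, adjusted p = 0.00016). Over the 3 editors the difference was 0.05, with a 95% interval of -0.01 to 0.12, and did not pass the test (edgeR, adjusted p = 0.170).

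To compare the e forms with each other, levels were divided by transcript length, and the result depended on which length was used. On the MANE Select transcript, with intergenic guides ATP6V0E2 stood at 66.9 ± 5.0 CPM per kilobase (SD, n = 9) and ATP6V0E1 at 50.3 ± 2.3, so that ATP6V0E2 made up 57.0% ± 1.5 of the e-subunit level. With NRF1 guides ATP6V0E2 was at 22.2 ± 1.5 CPM per kilobase while ATP6V0E1 stood at 52.2 ± 2.4, and the share of ATP6V0E2 was 29.8% ± 2.1. By library the share ran from 54.8% to 59.3% with intergenic and from 27.0% to 33.4% with NRF1 guides. On this transcript the summed e-subunit level was 117 ± 6.5 CPM per kilobase with intergenic and 74.4 ± 2.0 with NRF1 guides. The sum is given on this length only, and the size of its fall depends on the length used. On the length of all annotated exons joined, which was computed first, ATP6V0E2 made up 27.8% ± 1.2 with intergenic and 10.97% ± 0.99 with NRF1 guides. The MANE Select length was taken up after those values had been seen, so which e form was the more abundant with intergenic guides is not settled here. Because ATP6V0E2 was selected on this contrast, these values carry no test.

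**Figure D2:**
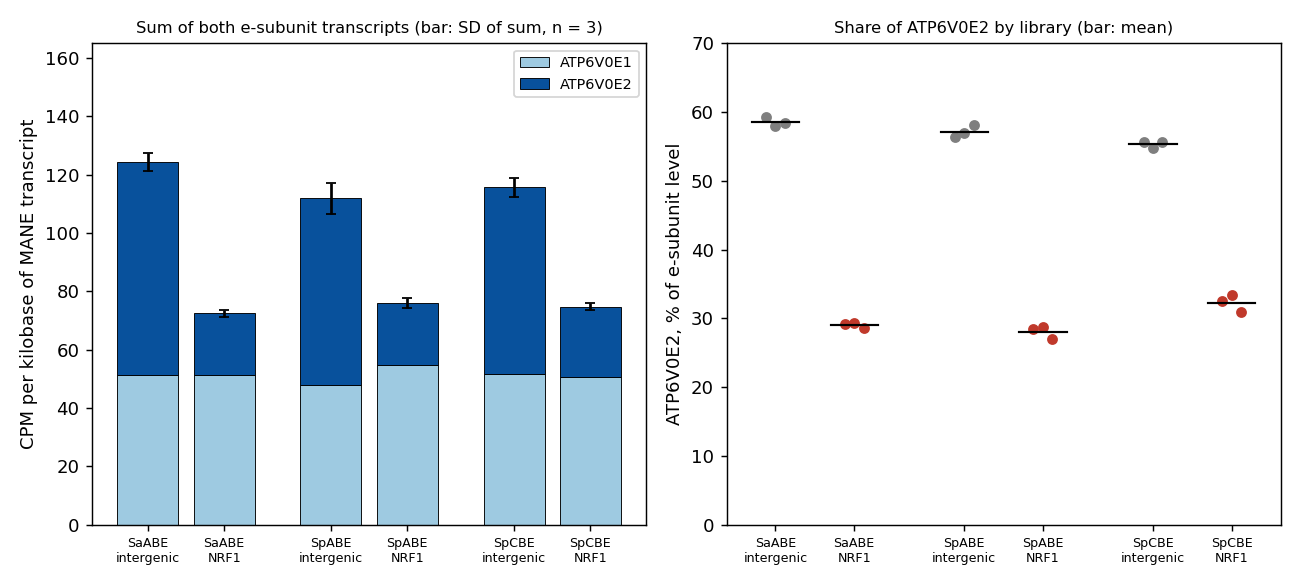
Left, mean level of ATP6V0E1 and ATP6V0E2 stacked (CPM per kilobase of MANE Select transcript, bars from 0, error bar the SD of the sum over 3 libraries) in the 6 groups. Right, ATP6V0E2 as a percentage of both in each library with the mean as a bar, at 54.8% to 59.3% with intergenic (grey) and 27.0% to 33.4% with NRF1 guides (red).

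ATP6V0C and ATP6V0B encode the proteolipids c and c'' of the rotating ring. ATP6V0C was at 284.8, 269.3 and 263.4 CPM in SaABE intergenic and 298.1, 314.0 and 293.2 CPM in SaABE NRF1 libraries. In SpABE it was at 187.0, 188.4 and 196.2 CPM with the intergenic and 244.1, 247.2 and 244.6 CPM with the NRF1 guide. SpCBE libraries held 193.7, 194.8 and 191.8 CPM against 199.6, 198.1 and 200.5 CPM. Within each editor all 3 NRF1 libraries lay above all 3 intergenic libraries, but by very different distances. Over the 3 editors ATP6V0C rose by 0.19 ± 0.03 (log2, SE; edgeR, adjusted p = 8.2e-05), a call that was lost in a fit without a term for the editor (adjusted p = 0.28). Its estimated counts were not whole numbers in any of the 18 libraries, and how reads shared with other features were divided is not given in the sources used here, so its level is uncertain to that extent.

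ATP6V0B was at 157.6, 143.3 and 149.5 CPM in SaABE intergenic and 166.3, 173.4 and 171.5 CPM in SaABE NRF1 libraries. In SpABE the values were 120.3, 126.8 and 131.1 CPM with the intergenic and 171.2, 173.1 and 171.0 CPM with the NRF1 guide. In SpCBE they were 149.8, 153.1 and 150.4 CPM against 162.6, 156.3 and 161.2 CPM. The SpABE intergenic libraries were the lowest of all 18, and the NRF1 libraries of the 3 editors were closer to each other than the intergenic ones. ATP6V0B rose by 0.24 ± 0.04 (log2, SE; edgeR, adjusted p = 1.9e-05), the largest rise among the 9 genes.

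The a subunit anchors the fixed part of the motor and has several isoforms that direct the pump to different membranes. ATP6V0A1 (a1) averaged 178 ± 7.7 CPM with intergenic and 190 ± 14 CPM with NRF1 guides (SD, n = 9), and rose by 0.09 ± 0.02 (log2, SE; edgeR, adjusted p = 0.00067). ATP6V0A2 (a2) went from 67.0 ± 3.4 to 73.0 ± 2.7 CPM and rose by 0.12 ± 0.02 (edgeR, adjusted p = 0.00029). TCIRG1 (a3), the isoform known from osteoclasts, was low, at 1.94 to 5.02 CPM with intergenic and 2.11 to 5.27 CPM with NRF1 guides, and its difference of -0.06 had a 95% interval of -0.27 to 0.16 (edgeR, adjusted p = 0.71). Per kilobase of MANE Select transcript, a length on which these shares depend, a1 made up 78.9% of the 3 isoforms with intergenic and 78.7% with NRF1 guides, a2 18.7% and 19.2%, and a3 2.34% and 2.12%. Within editors, the moves over 1 SD of the intergenic libraries were those of a2 in SpCBE, from 19.4% ± 0.71 to 20.4% ± 0.04 (SD, n = 3) without overlap, and of a3 in SaABE, from 2.07% ± 0.41 to 1.53% ± 0.22 with overlap, and these shares were not tested. ATP6V0A4, the a4 isoform of kidney intercalated cells, did not pass the filter on low counts.

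ATP6V0D1, which couples the ring to the central stalk, stood at 112.5 to 128.2 CPM with intergenic and 123.6 to 139.1 CPM with NRF1 guides. Within each editor its 3 NRF1 libraries lay above the 3 intergenic ones, and it rose by 0.13 ± 0.02 (log2, SE; edgeR, adjusted p = 4.6e-06). Its paralogue ATP6V0D2, a form of osteoclasts and kidney, did not pass the filter.

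The accessory proteins ATP6AP1 and ATP6AP2 take part in the assembly of V0 in the endoplasmic reticulum, and ATP6AP2 is also known as the prorenin receptor. ATP6AP2 was at 109.6 to 127.6 CPM with intergenic and 120.9 to 140.0 CPM with NRF1 guides, with the groups apart within each editor, and rose by 0.10 ± 0.02 (edgeR, adjusted p = 0.00027). ATP6AP1 stood at 214.1 to 252.3 CPM with intergenic and 212.2 to 263.7 CPM with NRF1 guides. It was higher with the NRF1 guide in SpABE (0.13, edgeR adjusted p = 0.0050), at -0.07 in SaABE and at 0.03 in SpCBE, and its difference over the 3 editors was 0.03 with a 95% interval of -0.03 to 0.09 (adjusted p = 0.43).

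Leaving out ATP6V0E2, 6 of the 9 genes were higher with NRF1 guides over the 3 editors at an adjusted p under 0.05 and 0 were lower, where 20.6% of all genes tested were higher and 18.8% lower. The median log2 difference of the 9 was 0.10, beside 0.01 for all genes tested. None of the 9 was also past a log2 difference of 0.5, which together with the adjusted p was met by 5.5% of all genes. The 3 that did not pass were ATP6V0E1, ATP6AP1 and TCIRG1. Without a term for the editor, 3 of the 9 passed, and ATP6V0A1 and ATP6AP2 were lost along with ATP6V0C (adjusted p = 0.14 and 0.064).

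By editor, 6 of the 9 were higher in SaABE (16.9% of all genes), 7 in SpABE (15.4%) and 3 in SpCBE (11%), and 0 were lower in any. Over all genes, 5754 were called in either direction in SaABE, 5788 in SpABE and 4090 in SpCBE. Of these calls 47.8%, 52.9% and 52.3% were lower. In SaABE, 5 of the 6 calls held whichever library was left out. The exception was ATP6AP2, whose call ended without SaABE intergenic replicate 1 or 3 or SaABE NRF1 replicate 1 or 3 (adjusted p = 0.054 to 0.15), while ATP6AP1 became lower without SaABE intergenic replicate 2 (-0.12, adjusted p = 0.012). The call of ATP6AP2 in SaABE also ended with only the 6 SaABE libraries (edgeR, adjusted p = 0.14). In SpABE, 5 of the 7 held. ATP6V0A1 was lost without SpABE intergenic replicate 1 or 2 or SpABE NRF1 replicate 3 (adjusted p = 0.086 to 0.13), and ATP6AP2 without SpABE intergenic replicate 1 or 3 or SpABE NRF1 replicate 1 or 3 (adjusted p = 0.067 to 0.095). Without a filter on low counts the call of ATP6V0A1 in SpABE was lost too (edgeR, adjusted p = 0.088). The 7 calls in SpABE come from a fit without the replicate number, and with it as a block that of ATP6AP2 was also lost (edgeR, adjusted p = 0.059).

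In SpCBE 0 of the 3 calls held in every such fit. ATP6V0A2 was lost without SpCBE intergenic replicate 2 or 3 or SpCBE NRF1 replicate 2 or 3 (adjusted p = 0.051 to 0.12). ATP6V0D1 was lost without SpCBE intergenic replicate 3 or SpCBE NRF1 replicate 1 (adjusted p = 0.057 to 0.065), and ATP6AP2 without SpCBE intergenic replicate 2 or SpCBE NRF1 replicate 3 (adjusted p = 0.063 to 0.10). ATP6V0B, at 0.08 and an adjusted p of 0.068 by edgeR, passed without SaABE intergenic replicate 1 or 2, SpABE intergenic replicate 1 or 3 or SpCBE NRF1 replicate 2 (adjusted p = 0.034 to 0.048). It also passed with DESeq2 (adjusted p = 0.035) and with only the 6 SpCBE libraries (edgeR, adjusted p = 0.044).

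**Figure D3:**
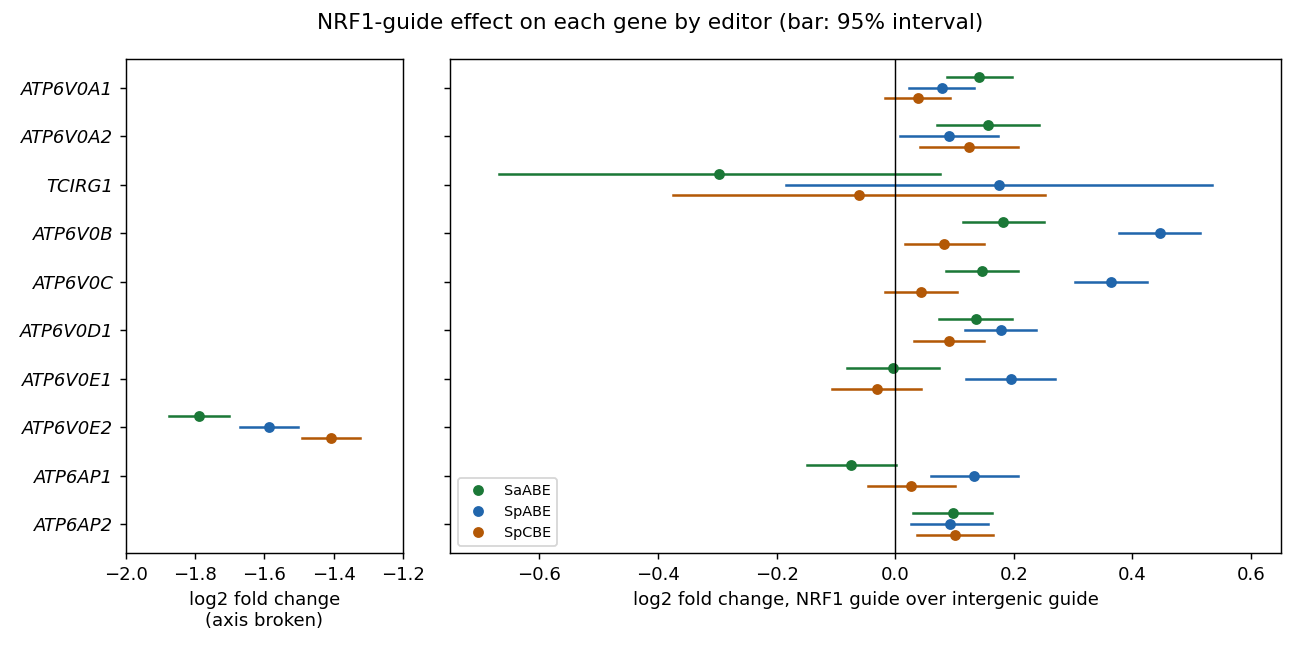
Log2 fold change of NRF1 over intergenic guides for each gene in SaABE (green), SpABE (blue) and SpCBE (orange), with the 95% interval as a bar and the axis broken between the panels. ATP6V0E2 stands alone at -1.79 to -1.41, and ATP6V0B, ATP6V0C and ATP6V0E1 are farther to the right in SpABE than in the other editors.

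The NRF1-guide effects were then compared between editors. Those of ATP6V0E2, -1.79 in SaABE, -1.59 in SpABE and -1.41 in SpCBE, are built from the values on which the gene was selected, so they are set side by side without a test. The difference of SaABE from SpCBE was -0.38 (log2), that of SaABE from SpABE -0.20 and that of SpABE from SpCBE -0.18. With SpABE intergenic replicate 3 left out, the last 2 were -0.27 and -0.13. ATP6V0E2 in the SaABE intergenic libraries was also the highest, as described below.

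The rises of the proteolipids and of e1 were larger in SpABE. ATP6V0B rose more in SpABE than in SaABE by 0.26 ± 0.05 (edgeR, adjusted p = 0.00056) and than in SpCBE by 0.36 ± 0.05 (adjusted p = 1.4e-05). ATP6V0C rose more in SpABE by 0.22 ± 0.04 (adjusted p = 0.0011) and 0.32 ± 0.04 (adjusted p = 1.9e-05) respectively. For ATP6V0E1 the differences were 0.20 ± 0.05 (adjusted p = 0.014, lost without SpABE NRF1 replicate 3 at 0.054) and 0.23 ± 0.05 (adjusted p = 0.0059), and for ATP6AP1 the difference from SaABE was 0.21 ± 0.05 (adjusted p = 0.0091). In all, leaving out ATP6V0E2, 4 of the 9 genes had a lower effect in SaABE than in SpABE (5.33% of all genes) and 3 had a higher effect in SpABE than in SpCBE (4.54%). Between SaABE and SpCBE, 0 of the 9 had a lower effect by edgeR (2.07% of all genes) and 0 a higher one, also with DESeq2. At an unadjusted p under 0.05 by edgeR these counts were 0 lower and 3 higher. The share of all genes past that threshold was not taken, so nothing is read from these counts. Over all genes, 726 passed by edgeR between SaABE and SpCBE, and 50.7% of them had a lower effect. These comparisons share libraries and are not independent of each other. ATP6V0A1, ATP6V0A2, ATP6V0D1, ATP6AP2 and TCIRG1 passed the test in none of the 3, and for ATP6AP2 the 3 intervals lay between -0.10 and 0.10.

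Because every effect is read against the intergenic libraries of the same editor, these were compared too. ATP6V0C was higher in SaABE intergenic libraries than in SpABE by 0.52 ± 0.03 (log2, SE; edgeR, adjusted p = 2.2e-12) and than in SpCBE by 0.49 ± 0.03 (adjusted p = 2.7e-12), a distance greater than its response to the NRF1 guide in any editor. ATP6V0B was lower in SpABE intergenic libraries, by 0.25 ± 0.03 against SaABE (adjusted p = 1.7e-06) and by 0.26 ± 0.03 against SpCBE (adjusted p = 1.3e-06). ATP6V0E2 was higher in SaABE than in SpABE by 0.19 ± 0.04 and than in SpCBE by 0.18 ± 0.04. For ATP6V0E2, SpABE and SpCBE differed by -0.002 with a 95% interval of -0.08 to 0.07. The intergenic libraries are part of the contrast on which ATP6V0E2 was selected, so its values are given here without a test. TCIRG1 was lower by 0.58 ± 0.16 in SaABE than in SpCBE (adjusted p = 0.0059, lost without SaABE intergenic replicate 2 at 0.051) and by 0.91 ± 0.16 in SpABE than in SpCBE (adjusted p = 0.00011), at 73 to 205 counts per library.

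Counted over the 10 genes, 4 were higher and 1 lower in SaABE than in SpABE intergenic libraries (19.3% and 19.1% of all genes, 38.4% in either direction). Against SpCBE, 3 were higher and 4 lower in SaABE (20.1% and 20.6%, 40.6% together), and 1 was higher and 6 lower in SpABE (17.7% and 17.8%, 35.5% together). In both comparisons of SaABE the genes counted as higher include ATP6V0E2, which was selected on values of these libraries and is not a call. Without it, the higher genes were ATP6V0B, ATP6V0C and ATP6V0E1 against SpABE, and ATP6V0A1 and ATP6V0C against SpCBE. SaABE and SpABE carry the same deaminase and differ in the Cas9, the guide scaffold and the guide, which cannot be told apart. SpABE and SpCBE share the nickase and differ in the deaminase. Per the paper, the NRF1 targets were splice donor or acceptor sites of the exon, and which of them each NRF1 guide addressed is not described here. Per the paper's methods the editor plasmids go back to the same parent plasmid. Each editor is also a separate set of libraries, so any difference in their handling cannot be told apart from the editor. Several calls rested on 1 library. Between SaABE and SpABE, ATP6V0A2 was lost without SaABE intergenic replicate 1 or 3 (adjusted p = 0.054 to 0.079) and ATP6V0E1 without SaABE intergenic replicate 3 or SpABE intergenic replicate 1 or 2 (0.063 to 0.13), whereas ATP6V0D1 passed without SpABE intergenic replicate 2 (0.031) and TCIRG1 without SaABE intergenic replicate 2 (0.037). Between SaABE and SpCBE, ATP6AP1 was lost (0.052) and ATP6V0A2 passed (0.039) without SaABE intergenic replicate 2. Between SpABE and SpCBE, ATP6V0E1 was lost without SpABE intergenic replicate 1 or 2 or SpCBE intergenic replicate 2 or 3 (0.050 to 0.16), ATP6V0D1 without any of 8 libraries (0.050 to 0.19) and ATP6AP1, at an adjusted p of 0.049, without any of 14 (0.054 to 0.21). With no filter on low counts, ATP6V0E1 was also lost against SaABE (edgeR, adjusted p = 0.12) and SpCBE (0.057). Between SpABE and SpCBE, ATP6V0D1 (0.16) and ATP6AP1 (0.064) were lost that way, and ATP6AP1 also with RLE scaling (0.063).

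Ordered by CPM per kilobase with intergenic guides, the genes ran from ATP6V0C (200 ± 37, SD, n = 9), ATP6V0B (144 ± 13) and ATP6AP1 (116 ± 6.2) through ATP6V0D1 (73.9 ± 3.6), ATP6V0E2 (66.9 ± 5.0), ATP6AP2 (53.2 ± 2.8), ATP6V0E1 (50.3 ± 2.3) and ATP6V0A1 (43.4 ± 1.9) to ATP6V0A2 (10.3 ± 0.52) and TCIRG1 (1.28 ± 0.40). The ranges of ATP6V0B and ATP6AP1, of ATP6V0D1 and ATP6V0E2, and of ATP6AP2 and ATP6V0E1 overlapped, and the other neighbours in this order did not. With NRF1 guides ATP6V0E2, at 22.2 CPM per kilobase, stood between ATP6V0A1 (46.2 ± 3.4) and ATP6V0A2 (11.2 ± 0.42), below ATP6V0E1. This order is on the MANE Select length, and with all exons joined ATP6V0E1 ranked 2 in place of 7. On that length ATP6V0B ranked 3 in place of 2, ATP6AP1 4 in place of 3 and ATP6V0D1 6 in place of 4. ATP6V0A1 ranked 7 in place of 8 and ATP6AP2 8 in place of 6.

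At the locus of ATP6V0E2, the long non-coding antisense RNA ATP6V0E2-AS1 runs on the other strand (chromosome 7, 149867697 to 149880610) and shares 864 exon bases with it, 12.8% of the exon bases of ATP6V0E2. The RefSeq start of ATP6V0E2-AS1 lies 107 bases from that of ATP6V0E2 in the divergent direction. The 10-letter match printed above lies between these RefSeq starts. In GENCODE 44 the span of ATP6V0E2-AS1 reaches 6641 bases past the MANE Select start of ATP6V0E2, inside that gene. Which start the counted reads came from was not tested. ATP6V0E2-AS1 stood at 11.72, 11.86 and 12.18 CPM in SaABE intergenic and 6.12, 6.59 and 6.95 CPM in SaABE NRF1 libraries. In SpABE it was at 9.01, 8.66 and 10.63 CPM against 6.33, 5.81 and 6.18 CPM, and in SpCBE at 10.32, 10.90 and 9.96 CPM against 6.02, 7.61 and 5.89 CPM. All 9 NRF1 libraries lay below all 9 intergenic ones, and the transcript fell by 0.72 ± 0.06 on the log2 scale (edgeR, adjusted p = 2.4e-10). The kit keeps strand, but whether the counting used it is not given in the sources used here, so reads of the 2 genes cannot be told apart where their exons overlap.

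Among the other 8 genes within 50 kb, 3 passed the filter. ZNF862, a zinc finger gene upstream, rose by 0.20 ± 0.04 (edgeR, adjusted p = 0.00015), from 9.88 to 11.4 CPM. The non-coding RNA AC004877.1 fell by 0.36 ± 0.10 (adjusted p = 0.0074), from 1.89 to 1.48 CPM, and SSPO was at 0.902 and 0.738 CPM (adjusted p = 0.11). AC092681.3, which shares 466 exon bases with ATP6V0E2, was at or near 0 in every library and was not tested, like AC004877.2, AC093458.1, AC093458.2 and AC092681.1.

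**Figure D4:**
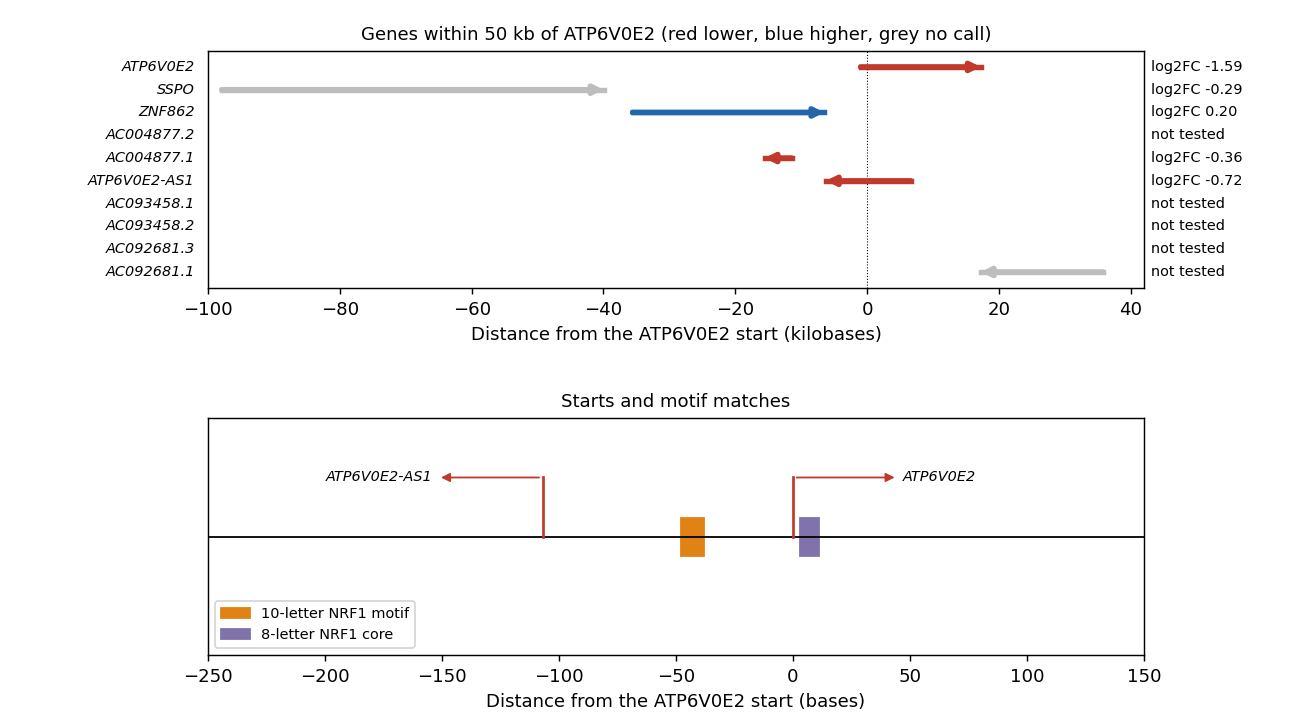
Top, genes within 50 kb of ATP6V0E2 by distance from its MANE Select start (kilobases), with the log2 fold change over 3 editors at the right, lower genes in red, higher in blue and genes without a call in grey, and arrowheads on longer genes for the direction of transcription. Bottom, the same start and the RefSeq start of ATP6V0E2-AS1 with the 10-letter and the 8-letter match (bases), the first of which lies between both starts.

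The genes whose log2 CPM followed that of ATP6V0E2 most closely over the 18 libraries were EMC10 and SLC46A1 (Pearson r = 0.997 each), PCCB (0.996), and ADCY1 and NDRG3 (0.995 each). Their log2 differences over the 3 editors were -1.39, -1.47, -1.58, -2.10 and -0.68. The 18 points fall into an NRF1-guide and an intergenic-guide cluster, which sets most of each r, and the values are descriptive.

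The other genes of the pump and of the lysosome were examined as lists. In the V1 sector, 12 of 13 genes were tested and 4 were higher and 2 lower over the 3 editors, with a median of 0.03. ATP6V1D and ATP6V1E1, stalk subunits, rose by 0.11 ± 0.03 and 0.08 ± 0.02 (edgeR, adjusted p = 0.0010 and 0.0020). ATP6V1F and ATP6V1G1, of the central and peripheral stalks, fell by 0.14 ± 0.02 and 0.10 ± 0.02 (adjusted p = 1.4e-05 and 0.00068). RNASEK, a further V0 component, rose by 0.13 ± 0.03 (adjusted p = 0.00034).

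Among genes of assembly and regulation, 11 of 12 were tested, 4 were higher and 4 lower, and the median was -0.03. TBC1D24, a protein with a TLD domain of the kind that binds the pump, went from 26.8 ± 2.4 to 9.35 ± 0.69 CPM (SD, n = 9) and fell by 1.51 ± 0.05 on the log2 scale (edgeR, adjusted p = 6.7e-18). It lies on the same strand as ATP6V0C and ends 4391 bases before it, and their exons do not overlap. DMXL2, a rabconnectin that helps V1 join V0, went from 30.2 ± 3.0 to 16.1 ± 1.9 CPM and fell by 0.91 ± 0.04 (adjusted p = 2.0e-15). NCOA7, also with a TLD domain, fell by 0.21 ± 0.03 (adjusted p = 2.6e-06), and TMEM199, an assembly factor of V0, rose by 0.13 ± 0.03 (adjusted p = 0.00031). For TBC1D24 and DMXL2 the 9 NRF1 libraries lay below all intergenic libraries, with 8.43 to 10.7 against 22.1 to 30.8 CPM and 13.6 to 19.1 against 26.8 to 36.3 CPM.

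Of the MiT factors, MITF rose by 0.22 ± 0.03 (edgeR, adjusted p = 1.3e-05), while TFEB (0.05), TFE3 (-0.04) and TFEC (0.38, adjusted p = 0.22) did not pass over the 3 editors. For TFE3 this value covers moves in opposite directions. Its mean with the NRF1 guide was 92.97% of the intergenic mean in SaABE, 109.9% in SpABE and 90.74% in SpCBE. Within each editor its NRF1 and intergenic libraries did not overlap. In the Ragulator and Rag GTPases, which sense amino acids at the lysosome together with the pump, 6 of 10 were higher and 1 lower, with a median of 0.08. LAMTOR4 rose by 0.50 ± 0.03 (adjusted p = 3.5e-12), LAMTOR2 by 0.13 ± 0.03 (adjusted p = 0.0012) and SLC38A9 by 0.10 ± 0.03 (adjusted p = 0.0032), and RRAGD fell by 0.22 ± 0.03 (adjusted p = 6.7e-07).

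In lysosomal ion transport, 3 of 10 were higher and 2 lower, with a median of 0.06. The calcium and sodium channel TPCN2 fell by 0.57 ± 0.05 (edgeR, adjusted p = 3.3e-09) and the chloride-proton exchanger CLCN5 by 0.47 ± 0.03 (adjusted p = 2.1e-11), whereas CLCN3 and OSTM1 rose by 0.10 ± 0.02 and 0.14 ± 0.03 (adjusted p = 0.00010 and 0.00037). Of 20 lysosomal hydrolases and membrane proteins, 10 were higher and 5 lower, with a median of 0.05. NPC1, which exports cholesterol from lysosomes, fell by 0.50 ± 0.02 (adjusted p = 2.5e-15), the protease CTSL by 0.31 ± 0.03 (adjusted p = 5.2e-10) and PSAP, the precursor of saposins, by 0.27 ± 0.03 (adjusted p = 4.5e-08), and the peptidase TPP1 rose by 0.21 ± 0.02 (adjusted p = 2.1e-07). Read against 20.6% higher and 18.8% lower among all genes, no statement is made about the lists as sets.

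**Figure D5:**
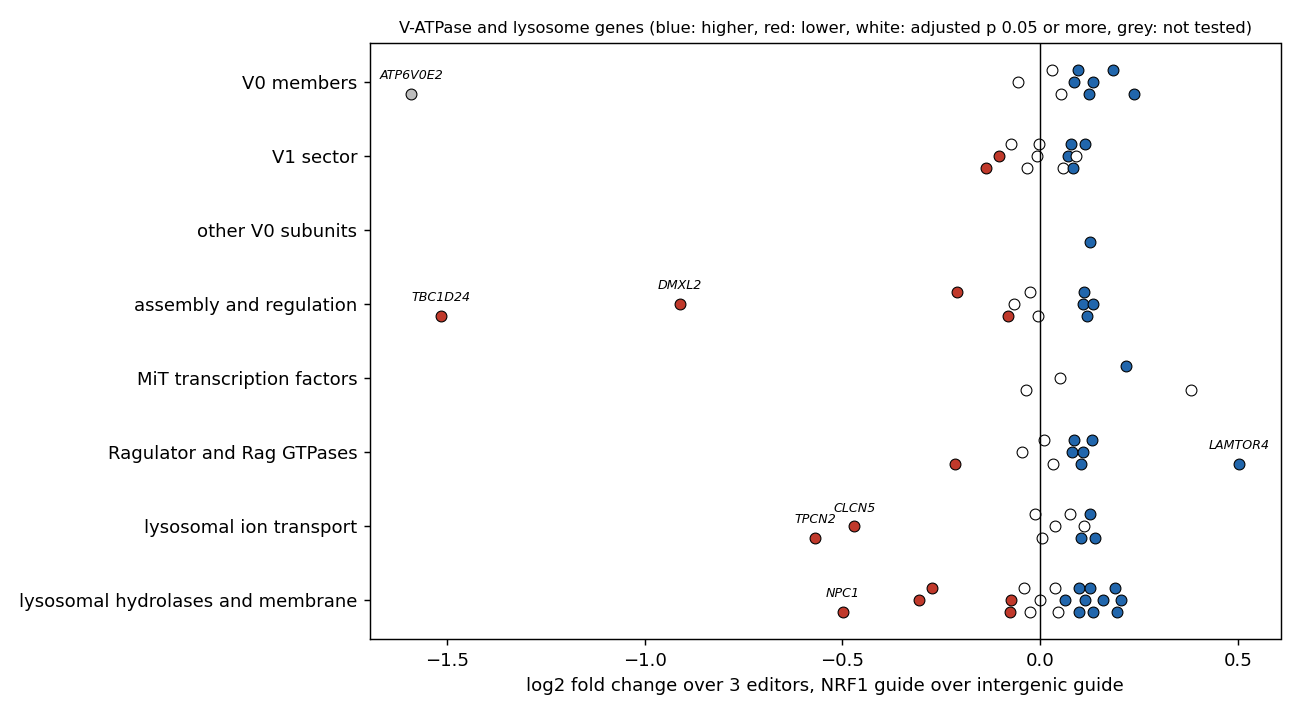
Log2 fold change over 3 editors (x axis) of each tested gene in the V0 sector and 7 lists of the pump and lysosome (rows, points spread vertically to avoid overlap). ATP6V0E2 (grey, not tested) at -1.59 and TBC1D24 at -1.51 lie farthest to the left, followed by DMXL2 at -0.91, and the remaining points lie between -0.57 and 0.50.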

How the data were processed

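Poly(A) RNA of HEK293T cells was sequenced after a stranded library preparation. Per the paper's methods and the labels' processing notes, adapters were removed by the authors with cutadapt 1.18 before alignment by STAR 2.7.0f to hg38 and GENCODE 30 transcripts, and the notes also name DESeq2 1.46.0. The values deposited are estimated counts without normalization, and 19.6% of those above 0 are not whole. Neither the counting program nor its strand setting is given in the sources used here. Of 36 library columns, 18 were used, and the other 18 were not used here.

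Estimated counts were rounded, filtered (filterByExpr by group, 17743 genes) and tested with edgeR 4.0.16 in R 4.3.3 (quasi-likelihood, TMM, Benjamini-Hochberg over all genes tested). The comparison over editors used editor and guide as terms, and all others the 6 group means. ± on a log2 difference is the SE from the F statistic. Genes were called at an adjusted p under 0.05. The design was to test ATP6V0E2 for differences between editors, in its NRF1-guide effect and in its intergenic level. These are built from the values that selected it and are given without a test. The scripts were tested on simulated data. Depth was 28101094 to 40687447 counts per library, and replicate pairs differed by more than sampling noise (chi-square per gene 1.92 to 5.84). Coordinates are from GENCODE 44.

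Members and lists were chosen with earlier results of these data known. Named genes were all members, up to 4 per list with the smallest p over 3 editors, the 5 most correlated with ATP6V0E2 at a mean of at least 5 CPM, and genes within 50 kb. Replicate numbers are shared between guides. Rank correlations of same-numbered libraries (deviations from group means, 10023 genes) were 0.12 to 0.16 in SpABE, -0.38 to -0.02 in SaABE and 0.04 to 0.10 in SpCBE. Numbers were thus taken as pairs, from the data alone, only in SpABE. The calls and counts given for SpABE come from fits without these pairs, which entered only in the replicate block, an alternative. In that fit ATP6AP2 in SpABE was not called (edgeR, adjusted p = 0.059). The check was first made with Pearson's r at this minimum of 10 CPM, which gave -0.06 to 0.17 in SpABE and so no pairs. It was then repeated at 4 minimums (5, 10, 15 and 20 CPM) and 2 prior counts, and the rank correlation was adopted after these outcomes had been seen. All SpABE correlations were over 0.1 in 8 of 8 settings with ranks and 4 of 8 with Pearson's r, and in 0 of 8 with either measure in SaABE and SpCBE. Levels per kilobase were first computed on the length of all exons joined and then on the MANE Select transcript, a change also made after the first values had been seen. Alternatives were RLE scaling, other filters, DESeq2 1.42.0, a replicate block, fits without an editor term or with 1 editor, and leaving out each library.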

Additional observations from a re-analysis of the deposited data

Results flagged for a closer look

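The effect of the NRF1 guide differed between editors for 4 of the 9 genes other than ATP6V0E2 by a test of the difference itself (edgeR contrast of 4 group means, adjusted over all genes). Of the 17743 genes tested, 2075 passed between SaABE and SpABE, 1590 between SpABE and SpCBE and 726 between SaABE and SpCBE. Between SaABE and SpABE the differences, on the log2 scale and as SaABE minus SpABE, were -0.26 for ATP6V0B (adjusted p = 0.00056), -0.22 for ATP6V0C (0.0011), -0.21 for ATP6AP1 (0.0091) and -0.20 for ATP6V0E1 (0.014). For SpABE minus SpCBE they were 0.36 for ATP6V0B (adjusted p = 1.4e-05), 0.32 for ATP6V0C (1.9e-05) and 0.23 for ATP6V0E1 (0.0059). ATP6V0B and ATP6V0E1 were also lower in SpABE intergenic libraries than in those of the other editors, and the part of these levels in the differences was not tested.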

How the results depend on the processing

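The NRF1-guide difference of ATP6V0E2 over 3 editors ran from -1.61 to -1.57 over 24 alternatives, and it was -1.53 in SpABE without SpABE intergenic replicate 3. Of the 9 other genes, 6 passed over the 3 editors under the replicate block and in every fit without 1 library, and 3 without an editor term, a setting that took the count over all genes from 6994 to 3451 and the share of lower calls from 47.7% to 59%. In SpCBE the count of 3 became 1 with the replicate block, and 1 to 4 without 1 library. In SaABE and SpABE it ran from 5 to 7. In intergenic libraries the count of 5 between SaABE and SpABE, which includes ATP6V0E2 though it is not a call, ran from 3 to 6 without 1 library. The count of 7 between SpABE and SpCBE ran from 4 to 7 without 1 library and was 4 without a filter. Near 0, the difference of ATP6V0E2 between SpABE and SpCBE intergenic libraries changed sign, to 0.00327 with RLE scaling, 0.00329 with DESeq2 and 0.010 without a filter, and ran from -0.0432 to 0.0400 without 1 library. Over all genes, the SaABE minus SpCBE count of 726 became 465 with the replicate block and 929 without a filter. Without 1 library it ran from 434 (SpCBE NRF1 replicate 2) to 1077 (SaABE intergenic replicate 2), with 483 without SaABE NRF1 replicate 1 and 459 without SpCBE intergenic replicate 3. Past both thresholds, counts without a filter went from 277 to 420 (SaABE minus SpABE) and 109 to 219 (SaABE minus SpCBE), and from 1098 to 715 (intergenic SpABE minus SpCBE) at a CPM of at least 1 in 9 libraries. The causes were not tested. The replicate block changed the calls of ATP6AP2 in each editor (adjusted p = 0.051, 0.059 and 0.053) and of ATP6V0D1 in SpCBE (0.057), and no other call on these genes. The share of ATP6V0E2 in the e-subunit level moved from 57.0% to 27.8% with intergenic and from 29.8% to 10.97% with NRF1 guides on the joined exon length, a comparison chosen after seeing the data. TCIRG1, at 62 to 205 counts per library, has the widest intervals.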
